A study of Homo sapiens with 3 samples.

Results

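The genes described here are the H/ACA small nucleolar RNAs and the small Cajal body RNAs, read from RNA-seq of MCF10A cells. They were chosen by name and annotation only, as the genes whose GENCODE release 44 symbol starts with SNORA or SCARNA followed by a digit and whose type is snoRNA or scaRNA. The rule gave 238 of the 62754 genes in the table, of which 214 were SNORA genes and 24 were SCARNA genes. They carried 175 distinct symbols, since some symbols stand for several loci, and their annotated length ranged from 68 to 701 bases with a median of 134 bases.

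MCF10A cells are breast epithelial cells of human origin that grow without limit but do not form tumours. The labels describe 3 replicates that carry an empty vector and received no treatment, and total RNA was taken 27 h after the cells were seeded. Libraries were prepared from 300 ng of RNA after removal of ribosomal RNA, for inserts of 200 to 300 base pairs, which is longer than most of these RNAs. All samples are of 1 group, so levels and replicates are compared but no condition is, and nothing in the labels says that the replicates came from separate cultures, so p-values measure the spread between these samples, which may be technical. The values are in TPM, a unit in which reads are counted per transcript length and scaled so that the genes of a sample sum to 1000000. All 9 markers of basal breast epithelium that were examined were at or above 1 TPM, at means from 14.6 to 6612 TPM, and 2 of 11 markers of blood, endothelial, fibroblast and fat cells were, at most at 4.96 TPM.

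H/ACA RNAs fold into hairpins that are joined by a hinge with the H box and followed by a tail with the letters ACA. Loops in the hairpins pair with a target RNA and place a uridine in the active site of the pseudouridine synthase dyskerin. Most SNORA RNAs guide the modification of ribosomal RNA in the nucleolus. The scaRNAs guide that of the spliceosomal small nuclear RNAs in the Cajal body, and some of them carry C and D boxes, the elements that guide 2′-O-methylation, in place of or next to an H/ACA domain. In human cells most of these RNAs are not transcribed from a promoter of their own but are cut from the introns of a host gene, after which their ends are trimmed back to the bound proteins. A TPM value of such a gene can thus come from the mature RNA or from unspliced or excised host RNA, and the 2 sources cannot be told apart in these libraries.

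Some of the members on which the results turn are shown first, and all but SNORA71B carry letters of the features that define the families. They were read from hg38 on the strand given, 5′ to 3′, and equalled the GENCODE transcript for 238 of 238 members. Capitals in the SNORA genes and SCARNA21 mark the candidates for the H box (letters ANANNA) in the middle part of the gene and an ACA placed 3 bases from the 3′ end. SNORA71B has neither of them, so its sequence holds no capitals. SNORA73B, at chr1:28508559-28508762 on the plus strand, was the most abundant member. SNORA12 at chr10:100237156-100237302 on the minus strand had the largest SD of log2(TPM + 1) between replicates among members with at least 15 reads, SNORA71B at chr20:38425083-38425354 on the minus strand was highest in another replicate than most, and SCARNA21 at chr17:7906122-7906260 on the plus strand was the most abundant scaRNA with an ACA tail. None of them shares a base with an annotated exon of another gene on its strand, and each lies in an intron of its host gene.
SNORA73B: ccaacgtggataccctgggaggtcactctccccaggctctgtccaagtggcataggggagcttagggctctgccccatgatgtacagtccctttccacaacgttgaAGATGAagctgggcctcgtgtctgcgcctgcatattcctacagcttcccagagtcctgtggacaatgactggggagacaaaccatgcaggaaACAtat
SNORA12: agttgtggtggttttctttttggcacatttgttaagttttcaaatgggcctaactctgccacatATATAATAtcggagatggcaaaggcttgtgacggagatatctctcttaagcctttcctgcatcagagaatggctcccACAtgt
SNORA71B: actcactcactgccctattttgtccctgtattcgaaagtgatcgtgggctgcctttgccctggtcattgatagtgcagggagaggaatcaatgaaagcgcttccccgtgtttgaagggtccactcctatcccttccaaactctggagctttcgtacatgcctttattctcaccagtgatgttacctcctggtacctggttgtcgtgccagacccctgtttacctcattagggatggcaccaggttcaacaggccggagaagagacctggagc
SCARNA21: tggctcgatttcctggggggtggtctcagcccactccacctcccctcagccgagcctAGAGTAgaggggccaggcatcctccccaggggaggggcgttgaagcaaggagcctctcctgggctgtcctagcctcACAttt

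SCARNA5 at chr2:233275727-233276002 and SCARNA6 at chr2:233288676-233288940, both on the plus strand of hg38, lie in introns of the same gene, ATG16L1, and combine both kinds of domain. They are shown because they lack the ACA tail and hold a C box (NTGATGA) near the 5′ end and a D box (CTGA) near the 3′ end instead, both in capitals. The identity of the pair was 63.6% over the aligned length.
SCARNA5: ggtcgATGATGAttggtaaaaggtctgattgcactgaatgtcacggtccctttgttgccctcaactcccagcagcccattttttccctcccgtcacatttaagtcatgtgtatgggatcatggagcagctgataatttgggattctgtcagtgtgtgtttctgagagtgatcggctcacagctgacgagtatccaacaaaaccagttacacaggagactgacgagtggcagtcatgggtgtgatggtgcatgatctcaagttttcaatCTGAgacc
SCARNA6: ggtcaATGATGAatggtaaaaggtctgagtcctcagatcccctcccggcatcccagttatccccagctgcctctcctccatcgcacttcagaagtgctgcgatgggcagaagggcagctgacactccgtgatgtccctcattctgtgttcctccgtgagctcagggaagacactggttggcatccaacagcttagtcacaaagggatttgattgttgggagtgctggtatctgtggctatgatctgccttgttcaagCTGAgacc

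Over all 238 members, the letters ACA stood exactly 3 bases from the annotated 3′ end in 156 (65.5%). The window of equal length just upstream of each member, on the same strand, held them at that place in 4 cases (1.68%). Allowing ACA anywhere in the last 10 bases gave 194 members (81.5%) and 34 upstream windows (14.3%). The short H box letters ANANNA were in the middle part of 213 members (89.5%), but also of 133 upstream windows (55.9%), so that they set the members apart less than the tail did. Both features were present in 146 members (61.3%) and 3 upstream windows (1.26%). The letters TGAG, in which the motif that sends H/ACA scaRNAs to the Cajal body can end, were in 17 of 24 SCARNA genes and in 17 of their 24 upstream windows. Letters that match are a description of the annotated sequence and do not show that a protein binds there.

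The C box within the first 20 bases together with the D box within the last 12 bases was found in 5 of 238 members and in 0 upstream windows. These were all 4 scaRNAs known to hold both kinds of domain, which are SCARNA5, SCARNA6, SCARNA10 and SCARNA12, and 1 of 3 that are known as box C/D scaRNAs. Of the 14 SCARNA genes of the H/ACA class, 11 had the ACA tail at the exact place. No SCARNA gene with C and D boxes by this class had it.

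Few reads stood behind these genes. As recovered from the TPM values, annotated genes had 15273329, 15446347 and 11166546 reads in the replicates, and the members took 1050, 1399 and 2215 of them. This was 0.00687% (95% Wilson interval from 0.00647% to 0.00730%) of the reads in replicate 1, 0.00906% (0.00859% to 0.00954%) in replicate 2 and 0.0198% (0.0190% to 0.0207%) in replicate 3. No interval overlapped another, and they cover counting error only. The 4 highest members, SNORA73B, SCARNA7, SCARNA21 and SCARNA5, held 601, 821 and 1645 of these reads, or 57.2%, 58.7% and 74.3%. Without them the members had 449, 578 and 570 reads. At the median length of 134 bases, 1 read was worth 1.43, 1.39 and 1.68 TPM in replicates 1, 2 and 3, so that a cutoff of 1 TPM was passed in a replicate by a single read. A member of that length with 0 reads could still be at up to 4.28, 4.16 and 5.03 TPM, the values of 3 reads.

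By the mean of the replicates, 72 members (30.3%) were at or above 1 TPM, against 24.9% of all genes. At least 1 read was assigned to 86 members, or 36.1%, against 41.9% of annotated genes, and 152 members had 0 reads in every replicate. Reads were present in all 3 replicates for 51 members, in 2 for 19 and in 1 for 16. At least 15 reads over the replicates, the minimum set here for comparing replicates, were reached by 36 members (15.1%), against 25.2% of annotated genes, and at least 100 reads by 6. By family, 30 of 214 SNORA and 6 of 24 SCARNA genes reached 15 reads. Just inside this minimum were SNORA22B, SCARNA1 and SNORA59A with 15 reads each, and just outside were SNORA19 and SNORA3B with 14.

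The zeros were not spread evenly over the members. For 71 members, all bases lie within annotated exons of another gene of the same strand, and 71 of these 71 had 0 reads in every replicate. Of the 16 members with part of their bases shared, 9 had a read, and of the 151 that share no base, 77 had a read and 35 had at least 15. The sharing gene was itself at or above 10 TPM for 53 of the 71, with a median of 67.5 TPM. The same held for the box C/D snoRNA genes (SNORD), of which 118 of 118 with all bases shared had 0 reads. For 34 of the 71 members the exon that covers them fully belongs to a transcript annotated as a retained intron, and without such transcripts 27 members share no base.

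A value of 0 in these 71 genes was therefore not read as a lack of the RNA. Among them are guide RNAs of well known hosts. All 6 members in TAF1D, a subunit of the RNA polymerase I initiation factor, at 82.9 TPM were fully shared and had 0 reads (SNORA32, SNORA1, SNORA25, SNORA18, SNORA8 and SNORA40). So were the 4 in EIF4A2, a translation initiation helicase, at 126 TPM, and the 4 in SNHG12, a non-coding snoRNA host, at 61.4 TPM. The members SNORA36A and SNORA56 lie in DKC1, the gene of dyskerin itself, at 114 TPM, and both were fully shared with 0 reads. Of 23 members in snoRNA host genes of the SNHG family, 20 were fully shared and 2 had a read. Of 20 members in ribosomal protein genes, 12 were fully shared, 6 had a read and 4 had at least 15 reads.

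Related genes differed along with the sharing. SNORA73A and SNORA73B, which lie in the same locus and are 93.2% identical, had 0 and 1510 reads, and SNORA73A was fully covered by exons of SNHG3 whereas SNORA73B shared no base. SNORA71B was the only one of 5 members in SNHG17 that was not fully shared, and the only one with reads, 136 in all, but at 272 bases it is 42.7% identical to SNORA71A of 134 bases. Copies without sharing also differed. SNORA14A and SNORA14B, at 91.1% identity, had 7 and 68 reads, and SCARNA21 and SCARNA21B, at 87.9% identity, had 298 and 2 reads. Reads that fit several copies can be split or dropped by the counting, so values of such copies are uncertain. An identical sequence in another member was found for 9 members.

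Among the 151 members that share no base, the presence of reads followed the level of the host gene, taken as the longest gene that contains the member on the same strand. With no host gene, 3 of 54 had a read (5.56%). With a host under 1 TPM 4 of 19 had one, with a host from 1 to 10 TPM 6 of 11, with a host from 10 to 100 TPM 42 of 44 (95.5%), and with a host of 100 TPM or more 22 of 23 (95.7%). In all, 64 of 67 members in hosts at or above 10 TPM had a read and 31 had at least 15, against 13 and 4 of 84 members with a lower host or none.

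**Figure D1:**
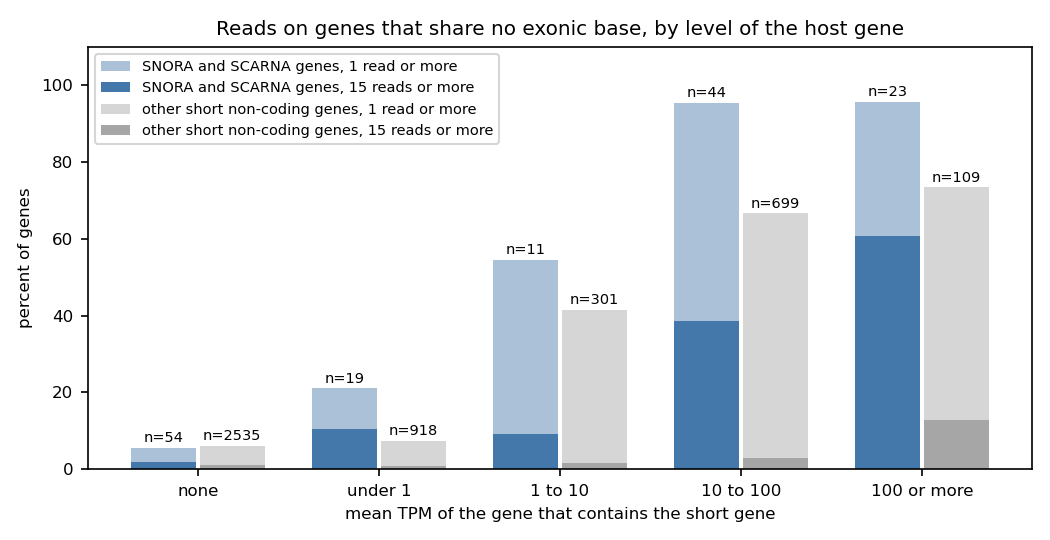
Percent of genes (y axis) with at least 1 read (light) and at least 15 reads (dark) over the 3 replicates, by mean TPM of the gene that contains them (x axis), for SNORA and SCARNA genes (blue) and other short non-coding genes (grey) that share no exonic base, with the number of genes above each bar. In hosts of 10 TPM or more the light blue bars stand above 95% and the light grey bars at 66.7% and 73.4%, and the dark blue bars at 38.6% and 60.9% and the dark grey bars at 2.86% and 12.8%.

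To see how much of this any short gene inside an expressed gene would show, other short non-coding genes were counted in the same way. Of 808 genes of the types misc_RNA, snRNA, rRNA_pseudogene and miRNA that share no base and lie in a host at or above 10 TPM, 546 (67.6%) had a read and 34 (4.21%) had at least 15. The members had a read in 95.5% and at least 15 reads in 46.3%. For the box C/D genes in such hosts, 52 of 98 had a read and 25 had at least 15. The types differ in length and in copy number, whose part in these shares was not tested.

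The 3 members that share no base and had 0 reads in spite of a host at or above 10 TPM were SNORA72 (ENSG00000201898) in DEGS1 at 324 TPM, SNORA70F in COBLL1 at 18.9 TPM and SNORA74 (ENSG00000252305) in COX10 at 24.1 TPM. None of them had the ACA tail at the exact place, whereas 46 of the 67 members in such hosts had it. By reads, the ACA tail was present in 24 of 35 unshared members with at least 15 reads, 31 of 42 with 1 to 14 reads and 37 of 74 with 0 reads. The other direction, at least 15 reads without a host at or above 10 TPM, held for SNORA74A, SNORA74D, SNORA30 and SNORA11F. These genes are named here because they fall outside the pattern, after their values were seen.

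SNORA74A and SNORA74D lie in a MATR3 gene entry (ENSG00000280987) at 0.188 TPM, but SNHG4, a non-coding snoRNA host at 74.2 TPM, contains them as well, so their low host follows from the rule of the longest gene. SNORA30 lies in SRCAP, a chromatin remodeller, at 3.21 TPM and had 16 reads. SNORA11F had no host gene and was measured at 8.96, 8.72 and 8.78 TPM from 17 reads in all, the least spread of the 36 members with at least 15 reads.

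The most abundant member was SNORA73B, a long H/ACA RNA also known as U17b, which is required for processing of the ribosomal RNA precursor and has no established modification target. It had 330, 426 and 754 reads in replicates 1, 2 and 3, which gave 308, 387 and 828 TPM. Replicate 3 was the highest, 2.69-fold above replicate 1 and 2.14-fold above replicate 2. Its mean was 508 ± 280 TPM (SD, n = 3). The host RCC1, the exchange factor of the GTPase Ran, was at 200, 220 and 165 TPM, with replicate 3 the lowest. The gene SNHG3, which also spans the locus, was at 110 ± 25.9 TPM (SD, n = 3).

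The SCARNA genes held 30.5%, 31.2% and 43.0% of the reads of all members in replicates 1, 2 and 3. SCARNA7, a box C/D scaRNA in an intron of the nuclear import gene KPNA4 on chromosome 3, was measured at 87.1, 115 and 366 TPM, from 151, 205 and 540 reads. Replicate 3 was 4.20-fold above replicate 1, while KPNA4 was at 74.4, 69.6 and 66.5 TPM. SCARNA21, in the chromatin remodeller gene CHD3, was measured at 88.0, 130 and 221 TPM, and CHD3 at 89.2, 89.0 and 72.2 TPM. Both scaRNAs were highest and their hosts lowest in replicate 3. A lower value there is not particular to these hosts, as the median log2 ratio of replicate 3 over replicate 1 was -0.21 over all genes. SNORA73B stood above both in every replicate, but SCARNA7 and SCARNA21 were at nearly the same level in replicate 1 and differed by less than their spread.

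SCARNA5 was measured at 38.6, 62.4 and 174 TPM and SCARNA6 at 12.9, 12.6 and 42.2 TPM, from 56, 93 and 214 reads and from 18, 18 and 50 reads. They lie in the same host, the autophagy gene ATG16L1, at 28.7, 31.1 and 22.1 TPM. SCARNA5 was above SCARNA6 in every replicate, by 2.99-fold, 4.96-fold and 4.11-fold. The other members of the class with both kinds of domain, SCARNA10 and SCARNA12, had 0 reads, and 75.2% of the bases of SCARNA10 and all of SCARNA12 are shared with other genes.

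The SCARNA genes listed in the H/ACA class were low. Of these 14 genes, 7 had a read and 1, SCARNA1 in PPP1R8, had at least 15. The list leaves out SCARNA21, at a mean of 146 TPM, and SCARNA18B. Both have the H box letters and the ACA tail, so the low level holds for the listed genes only. SCARNA1 had 9, 6 and 0 reads, or 10.3, 6.71 and 0 TPM, and the 0 in replicate 3 allows up to 4.05 TPM. SCARNA20, SCARNA18, SCARNA3, SCARNA8, SCARNA14 and SCARNA23 had 2 to 6 reads each. SCARNA13, SCARNA15, SCARNA16 and SCARNA22 were fully shared with 0 reads, as were SCARNA2 and SCARNA17 of the box C/D class. SCARNA4 had 0 reads at its 2 loci, of which 1 was fully shared and the other shared part of its bases. SCARNA11 had 0 reads in a host listed at 0. SCARNA18B, outside these classes, was at 17.0, 15.2 and 4.99 TPM from 12, 11 and 3 reads. SCARNA9 is annotated as a lncRNA, so it lies outside the rule, and had 2, 2 and 6 reads.

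Among the other SNORA genes, the highest were SNORA74D at 55.6, 71.2 and 81.2 TPM, SNORA65 at 33.83, 61.53 and 38.03 TPM and SNORA33 at 47.1, 21.5 and 46.7 TPM. SNORA65 lies in the ribosomal protein gene RPL12 and SNORA33 in RPS12. The order of these genes by mean TPM, 69.3 ± 12.9, 44.5 ± 14.9 and 38.4 ± 14.7 TPM (SD, n = 3 each), placed SNORA74D first in every replicate, while SNORA65 and SNORA33 differed by less than their spread. SNORA74A followed at 15.4, 27.2 and 56.6 TPM, and SNORA14B, in the mitochondrial import gene TOMM20, at 33.98, 39.95 and 24.96 TPM. SNORA71B was at 23.8, 53.8 and 18.9 TPM, with replicate 2 the highest.

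SNORA28 in the translation factor gene EIF5 had a mean of 26.4 ± 16.7 TPM, SNORA79B in CCNB1IP1 25.3 ± 10.1 TPM and SNORA80B in ODC1, the ornithine decarboxylase, 17.6 ± 7.97 TPM (SD, n = 3 each). SNORA12, in CWF19L1, was at 7.80, 3.79 and 58.0 TPM from 6, 3 and 38 reads, so that replicate 3 was 7.44-fold and 15.3-fold above the others, while CWF19L1 lay between 41.4 and 47.0 TPM. The remaining members with at least 15 reads had means between 5.69 TPM for SCARNA1 and 16.4 TPM for SNORA5C. From SNORA74A down to SCARNA1, neighbours in the order of mean TPM lay closer to each other than the larger of their SDs.

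**Figure D2:**
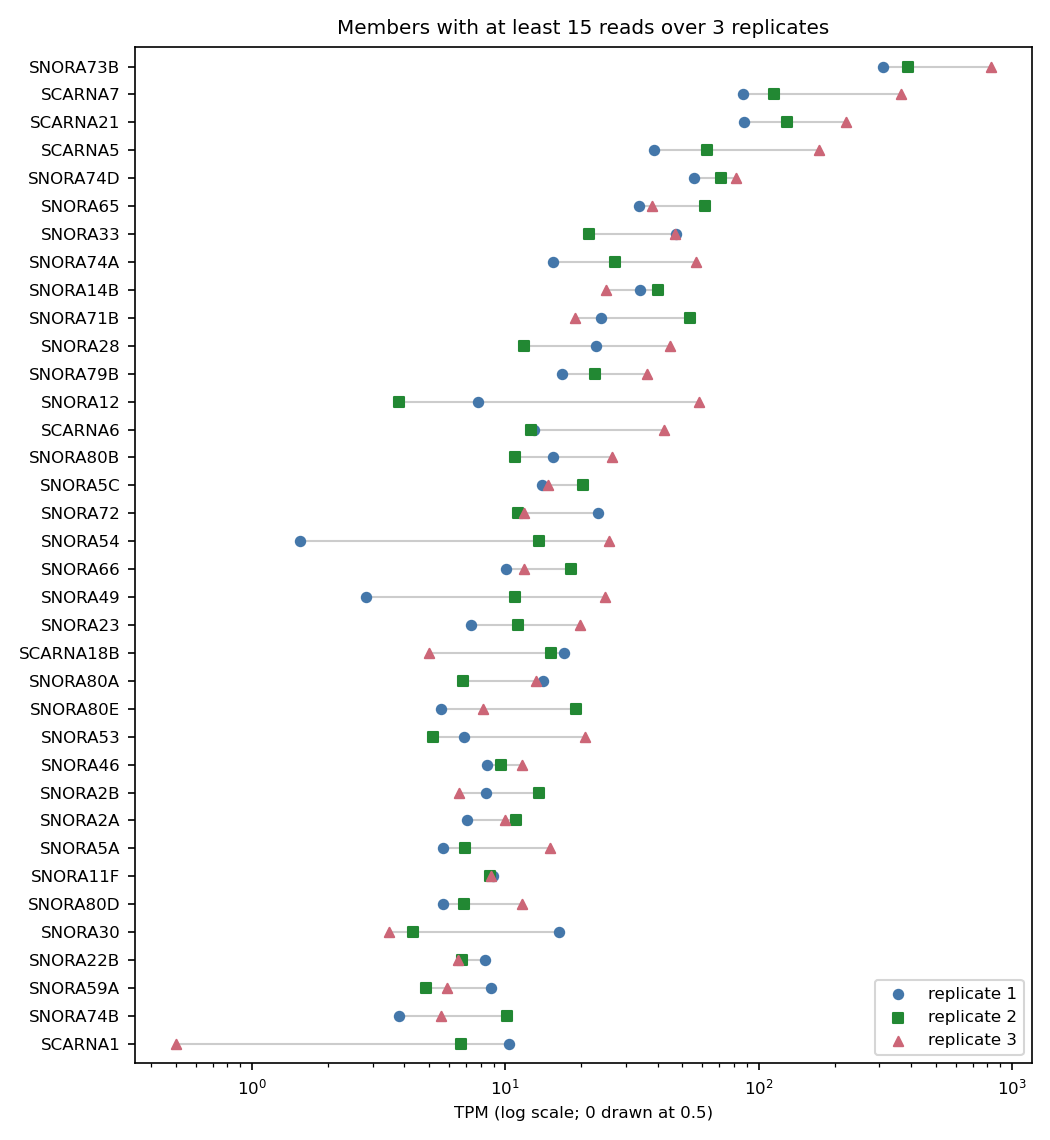
TPM on a log scale (x axis, 0 drawn at 0.5) of the 36 members with at least 15 reads in replicate 1 (blue circles), 2 (green squares) and 3 (red triangles), ordered by the mean. SNORA73B lies between 308 and 828 TPM, the 4 highest members have their highest value in replicate 3, and SCARNA1 is at 0 in replicate 3.

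Within a host, members were often at different levels. In the gene TBRG4, SNORA5C was 2.44-fold, 2.93-fold and 0.978-fold of SNORA5A in replicates 1, 2 and 3, so the order was not kept in replicate 3. In KANSL2, the mean of SNORA2A was 9.36 ± 2.04 TPM and that of SNORA2B 9.50 ± 3.64 TPM (SD, n = 3 each), which the spread between replicates exceeds. SNORA74D stood above SNORA74A by 3.61-fold, 2.62-fold and 1.44-fold. The order was thus the same in every replicate for this pair and for SCARNA5 and SCARNA6, and not for the others.

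Set against their hosts, most members were lower per length. Of the 35 members with at least 15 reads and a host gene, 7 had a mean above that of the host, 6 of them in every replicate. The median log2 ratio of member over host, with 1 TPM added to each, was -2.27. The 7 were SNORA74D, SNORA74A, SCARNA5, SCARNA7, SNORA73B, SNORA30 and SCARNA21. SCARNA5 stood 3.35-fold above ATG16L1, SCARNA7 2.70-fold above KPNA4, SNORA73B 2.60-fold above RCC1 and SCARNA21 1.75-fold above CHD3, the last not in replicate 1. With SNHG4 as the host of SNORA74A and SNORA74D, 5 members remained above.

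At the other end were members in strongly expressed genes. SNORA66 in RPL5 was at 13.4 TPM and its host at 2061 TPM, SNORA72 (ENSG00000207067) in RPL30 at 15.5 and 1126 TPM, and SNORA33 at 38.4 and 2509 TPM. SNORA22B in the chaperonin gene CCT6A was at 7.19 TPM and its host at 551 TPM. All bases of this SNORA72 lie opposite a gene on the other strand, and since the use of strand in counting is not given in the sources used here, its reads and those of that gene cannot be told apart.

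Across members the level did not follow that of the host among those with at least 15 reads, with a Spearman rho of 0.03 over 35 members. Over the 97 unshared members with a host, those with 0 reads included, it was 0.65, and over the 67 with a host at or above 10 TPM it was 0.51. These correlations are across genes of the same libraries, which are not independent replicates. The minimum of 15 reads removes low members and thereby narrows the range over which the first of them is taken.

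**Figure D3:**
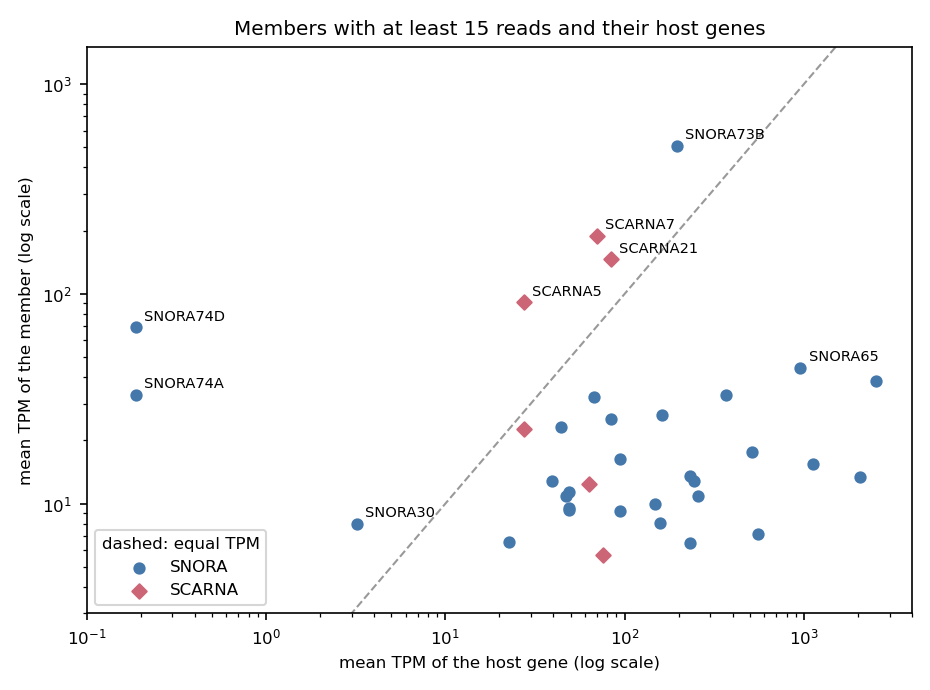
Mean TPM of the 35 members with at least 15 reads and a host gene (y axis, log scale) against the mean TPM of the host gene (x axis, log scale), for SNORA (blue circles) and SCARNA genes (red diamonds), with the dashed line at equal TPM. The 7 members above the line are labelled, and SNORA74A and SNORA74D are drawn at the MATR3 entry of 0.188 TPM.

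The replicates differed more in these genes than in most. Between replicates the SD of log2(TPM + 1) had a median of 0.64 over the 36 members with at least 15 reads, 0.18 over all 15802 genes with at least 15 reads and 0.15 over the 31 hosts of these members. Other short genes were close to the members, with 0.63 for those of 60 to 160 bases and 0.57 for those of 160 to 350 bases. The Spearman rho between replicates across the 36 members was 0.66 for replicates 1 and 2, 0.53 for 1 and 3 and 0.62 for 2 and 3.

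Against equal TPM, the reads of 15 of 36 members differed between replicates beyond counting error, as tested by chi-square and adjusted by Benjamini-Hochberg over all 15802 genes, of which 54.3% were called. As the power of this test grows with reads, members with 15 to 200 reads are better set against all genes with 15 to 200 reads, and 11 of 32 (34.4%) and 1164 of 5353 (21.7%) were called. Other genes by length were not limited to 200 reads. Of those of 60 to 160 bases and of 160 to 350 bases, 34.0% each were called, against 41.7% of all 36 members. Also without this limit, SNORD genes were called in 14.8% and the hosts of the members in 83.9%. The adjusted p was 2.11e-87 for SCARNA7, 1.72e-65 for SNORA73B, 8.57e-33 for SCARNA5, 1.21e-12 for SNORA12 and 3.37e-09 for SCARNA21 by this chi-square test. SCARNA6, SNORA71B and SNORA74A followed, with adjusted p of 2.77e-07, 1.48e-06 and 7.75e-06. SNORA53, SNORA28, SNORA54, SNORA49, SNORA30, SNORA33 and SCARNA1 were called with adjusted p between 0.000841 for SNORA53 and 0.0489 for SCARNA1.

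The chi-square test allows for counting error only. With the statistic scaled by the spread of protein-coding genes between replicates, 3 members (SCARNA7, SNORA73B and SCARNA5) remained, against 8.84% of all genes, a share near that of the 3 in 36 members. Without replicate 3, 5 of 25 members were called (these 3, SNORA33 and SNORA71B), against 21.3% of all genes. It was 11 of 24 without replicate 1 and 12 of 23 without replicate 2, against 46.7% of all genes in both cases. The share was thus lower without replicate 3 over all genes as well.

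Among the members that passed the minimum of 15 reads, the difference lay mostly with replicate 3. Of the 15 members called, 11 were highest in replicate 3, 3 in replicate 1 (SNORA30, SNORA33 and SCARNA1) and 1 in replicate 2 (SNORA71B). The minimum is summed over the replicates, so a member can pass through the replicate where it is high. Of the called members highest in replicate 3, SNORA12 (6, 3 and 38 reads) and SNORA54 (1, 9 and 14 reads) passed only with it. So did SNORA49 (2, 8 and 15 reads). Without replicate 1, 2 or 3, 24, 23 and 25 members reached it. Of all 36 members, 18 were highest in replicate 3, against 9.43% of all genes with at least 15 reads. Short genes were closer to the members, as 11 of 27 SNORD genes (40.7%), 34.0% of other genes of 60 to 160 bases and 27.04% of those of 160 to 350 bases were highest in replicate 3. The median log2 ratio of replicate 3 over replicate 1 was 0.47 for the members, -0.21 for all genes and -0.20 for the hosts of the members. For replicate 3 over replicate 2 it was 0.46, -0.23 and -0.13, and for replicate 2 over replicate 1 it was 0.29, 0.02 and -0.01. The members' medians depended on which of them were taken. With at least 30 reads they were 1.07 for replicate 3 over 1 and 1.03 for 3 over 2, with a pseudocount of 10 TPM 0.23 and 0.26, and with no filter on reads 0. With only members that share no base, 3 over 2 was 0.25. Replicate 3 also had the fewest reads in all, and its part in the result was not tested.

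By length, the 10 members of 160 bases or more had a median log2 ratio of 1.44 for replicate 3 over replicate 1, and 8 of them were called. The 26 shorter members had a median of 0.31, with 7 called (26.9%), and 11 were highest in replicate 3. Among them SNORA54 at 3.38, SNORA49 at 2.76 and SNORA12 at 2.75 stood above SCARNA5 at 2.14. These 3 rest on 1, 2 and 6 reads in replicate 1. Others, such as SNORA14B and SCARNA18B, were below 0. Over all genes 54.3% were called, and 34.0% of other genes in either length class. Other genes of 160 to 350 bases did not show this shift, with medians of 0.07 for replicate 3 over 1 and -0.34 for 3 over 2, nor did those of 60 to 160 bases at 0.08 and -0.29. The 27 SNORD genes with at least 15 reads were at 0.21 and 0.05. SNORA71B, one of the longest members at 272 bases, was lower in replicate 3 than in the others, at 18.9 TPM, and SCARNA1 had no read there. Outside the members, RN7SL1, the RNA of the signal recognition particle, stood 3.06-fold above replicate 1 in replicate 3. RMRP, the RNA of the ribonuclease MRP, stood 3.95-fold above replicate 1 in replicate 3. RPPH1, RN7SK and TERC had 0 reads in every replicate. The reason for these zeros was not tested, and they are not read as a lack of the RNAs. These 5 genes were chosen after their values were seen.

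**Figure D4:**
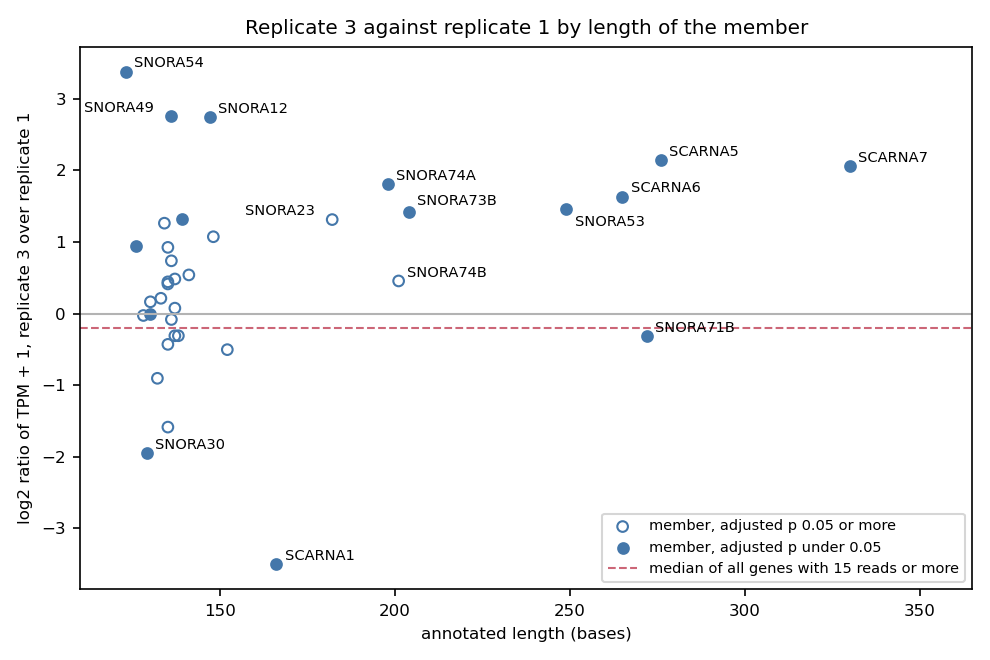
Log2 ratio of TPM + 1 in replicate 3 over replicate 1 (y axis) against annotated length in bases (x axis) for the 36 members with at least 15 reads, filled where the adjusted p of the chi-square test over the 3 replicates was under 0.05, with the median of all genes with at least 15 reads as a dashed line at -0.21. Of the longer members, SCARNA7, SCARNA5, SCARNA6, SNORA73B and SNORA74A are among those above 1, and SNORA71B and SCARNA1 lie below 0. Shorter members lie on both sides as well, with SNORA54 at 3.38, SNORA49 at 2.76 and SNORA12 at 2.75, and SNORA14B and SCARNA18B below 0.

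The proteins that carry these RNAs were measured from longer transcripts with many more reads. All 4 core proteins of the H/ACA particle were at or above 1 TPM. DKC1, the pseudouridine synthase, was at 125, 114 and 103 TPM, NHP2 at 422, 418 and 345 TPM, NOP10 at 214, 225 and 217 TPM and GAR1 at 47.8, 47.2 and 51.0 TPM in replicates 1, 2 and 3. NHP2 was the highest and GAR1 the lowest of them in every replicate, with means of 395 ± 43.3 and 48.7 ± 2.01 TPM (SD, n = 3 each). DKC1 and NHP2 were lowest in replicate 3, where the median log2 ratio to replicate 1 over all genes was -0.21 as well.

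Of the assembly factors, NAF1, which holds the place of GAR1 in the immature particle, was at 56.8 ± 7.07 TPM, and SHQ1, the chaperone of dyskerin, at 29.8 ± 2.47 TPM (SD, n = 3 each). The helicases RUVBL1 and RUVBL2 were at 104 ± 11.1 and 217 ± 33.0 TPM, their adaptor NOPCHAP1 at 6.17 ± 1.71 TPM and NOLC1, a nucleolar and Cajal body phosphoprotein, at 301 ± 39.4 TPM (SD, n = 3 each). COIL, the coilin that marks Cajal bodies, was at 39.9 ± 5.01 TPM, WRAP53, which brings scaRNAs and telomerase to them, at 17.4 ± 3.98 TPM and GEMIN2 of the SMN complex at 30.9 ± 1.57 TPM (SD, n = 3 each). SMN1 and SMN2 were listed at 0 in every replicate. They are near-identical copies whose reads the counting can drop, so that this is not read as a lack of expression.

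Of the genes listed for end trimming of these RNAs, the deadenylase PARN was at 38.3 ± 4.89 TPM and TOE1 at 50.1 ± 6.75 TPM (SD, n = 3 each). The list also held the polymerase TENT4B at 11.3 ± 1.83 TPM and ZCCHC8 of the exosome adaptor at 15.2 ± 2.50 TPM (SD, n = 3 each). The core proteins of the box C/D particle, which serve the scaRNAs with C and D boxes, had means between 272 TPM for SNU13 and 357 TPM for FBL. At or above 1 TPM were 21 of these 23 genes.

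**Figure D5:**
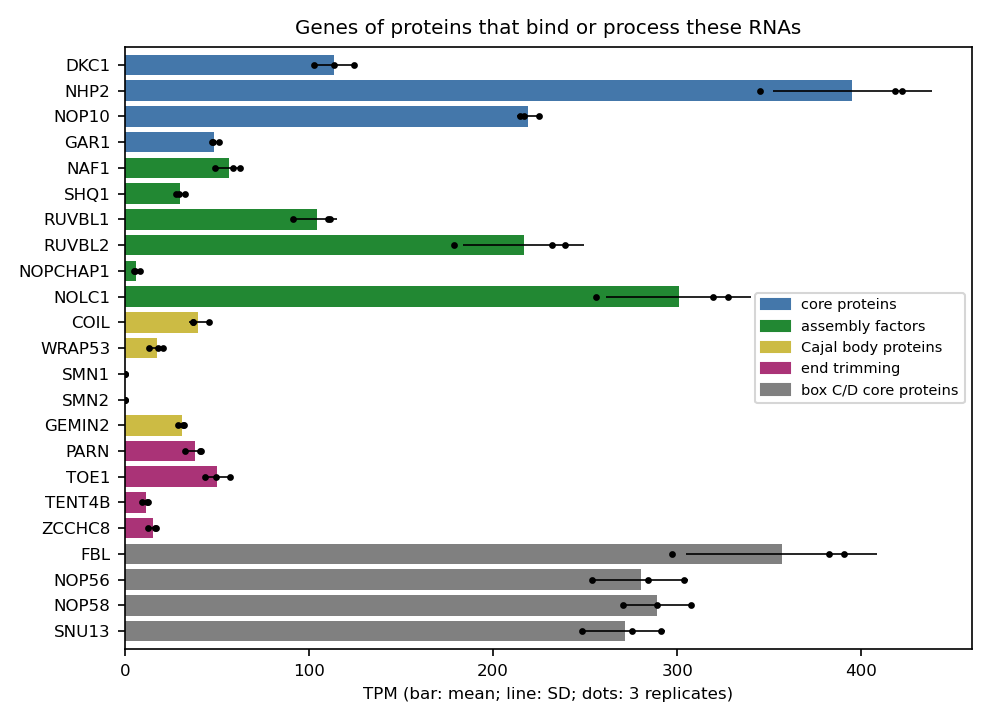
Mean TPM (x axis, linear from 0) of 23 genes of proteins listed for binding, assembly or end trimming of these RNAs. The SD is a line and the 3 replicates are dots, and bars are coloured by role. NHP2 at 395 TPM is the highest, and SMN1 and SMN2 are listed at 0.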

How the data were processed

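RNA-seq was measured in 3 replicates of MCF10A cells with an empty vector, all of 1 group. By the methods and the submitters' processing notes, reads were trimmed with fastp, mapped to hg38 (GRCh38.p14) with STAR and counted within Seq2science. The authors deposited TPM values of 62754 genes, which sum to 1000000 in each replicate, without pooling. Versions, annotation release and use of strand are not given in the sources used here.

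Lengths, types and positions came from GENCODE release 44, which held 62700 of the genes, and 54 were not found. Reads per gene were recovered as TPM times the length of the longest transcript, less 1 base per exon, divided by the smallest step. This gave whole numbers for 100% of values within a relative tolerance of 1e-06, and totals of 15273329, 15446347 and 11166546 reads. A gene with 0 reads was given a limit of 3 reads. As the precision rests on few reads, replicates were compared for genes with at least 15 reads, by a Pearson chi-square test against equal TPM with Benjamini-Hochberg adjustment over 15802 genes. Log2 ratios used a pseudocount of 1 TPM. The host gene was the longest protein-coding or lncRNA gene (a pseudogene where there was no other) that contains the member on its strand. Base sharing was counted with exons of all transcripts of other genes on the same strand. Sequences were read from hg38, and motifs were searched on the strand of the gene only. Part of the sequences are not reported here.

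The genes named are the 15 highest members, every SCARNA gene, the 8 highest and 8 lowest against the host, members of hosts with 3 or more members, the 8 with the largest spread among those with at least 50 reads, 23 protein genes and the hosts of these, 111 in all. Genes named outside this rule were chosen after their values were seen. The members, lists and scaRNA classes were chosen with earlier results of these data known. The scripts were first tested on simulated reads. Alternatives covered cutoffs, minimum reads, pseudocount, host rule, scaling, spread and leaving out each replicate. Python 3.11.15, numpy 2.4.6, pandas 2.3.3, scipy 1.17.1, matplotlib 3.10.9 and biopython 1.88 were used.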

Additional observations from a re-analysis of the deposited data

How the results depend on the processing

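No paired analysis was possible because there is 1 group. The number of members with at least 15 reads, 36, was 60 with a minimum of 5 reads and 19 with 30 reads, and lay between 23 (without replicate 2) and 25 when 1 replicate was left out, which leaves fewer reads by construction. The number of members whose reads differed between replicates, 15, was 3 with the statistic scaled by the spread of protein-coding genes, where 1397 of all genes were called in place of 8575, and lay between 5 of 25 tested (without replicate 3, 21.3% of all genes) and 12 of 23 (without replicate 2, 46.7% of all genes). With the expected reads taken from the median ratio of genes at or above 10 TPM it was 14, and 31.2% of all genes were called.

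The median SD of 0.64 was 0.40 with a pseudocount of 10 TPM and 0 with no filter on reads, as most members have no read, and lay between 0.40 (without replicate 3) and 0.65. The median log2 ratio of member over host, -2.27, was -4.15 with no filter, -1.69 with 30 reads and -1.72 with a pseudocount of 10 TPM. The counts at or above 1 TPM, of members above their host, of members with a read by host level, of the ACA tail and of the protein genes kept within 1.5 times under the alternatives run for each, and no direction was reversed. With protein-coding genes rescaled to 1000000, 51 of the 111 named genes moved by more than 1 SD, and with mitochondrially encoded genes left out 14 did. Both settings multiply all genes of a replicate by 1 factor. A mean of 3 cannot move by 1 SD when a replicate is dropped, so that setting says nothing of stability.

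Depth limits all of these values, as 50 of the 86 members with a read had 1 to 14 reads over the replicates, and a TPM under 5 rests on a few reads. Choices added after seeing the data were ACA in the last 10 bases, the C and D box letters and a host cutoff of 1 TPM, with which 70 of 78 members had a read.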
